A study of Mus musculus with 4 samples.

Results

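The MHC class II genes Ciita, H2-Aa, H2-Ab1, H2-Eb1, H2-DMa, H2-DMb1 and Cd74 were followed across the cell classes and conditions of a single-cell RNA sequencing study of mouse tumours. They are 7 of the 22631 genes in the count tables and were chosen by name, with earlier results of these data known. MC38 colon carcinoma cells had grown for 7 days in the flank of mice that carry the IL-12p40-IRES-EYFP transgene, in which a yellow fluorescent protein marks expression of an interleukin-12 chain. Live CD45+ cells, that is leukocytes, were taken by sorting and then read by inDrops, which isolates cells in droplets and counts each captured RNA molecule once through a unique molecular identifier (UMI). The groups were anti-CD40 tumour 1 and anti-CD40 tumour 2, taken 2 days after an intraperitoneal injection of 5 mg/kg agonist anti-CD40 antibody, and 1 untreated tumour; the treated ones are also called tumours 1 and 2. Every mouse had the transgene and the same tumour cells. The labels give no age, sex or strain, and each group value rests on 1 tumour.

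Class II molecules display peptides from engulfed protein to CD4+ T cells. Ciita encodes the transactivator without which class II promoters are hardly used; it does not bind DNA itself but docks on the factors RFX, CREB and NF-Y, which occupy the X and Y boxes of those promoters. H2-Aa and H2-Ab1 encode the α and β chains of I-A, H2-Eb1 encodes the β chain of I-E, Cd74 encodes the invariant chain that escorts new class II molecules to endosomes, and H2-DMa and H2-DMb1 encode the chaperone H2-M, which exchanges a fragment of the invariant chain for peptide. Macrophages, dendritic cells and B cells are the usual producers, and interferon gamma is a known inducer of Ciita in macrophages.

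The promoter letters by which such genes are recognised are shown here for the 3 members in whose RefSeq windows (GRCm38.p6) both motifs were found; 4 of the 7 members had a window to search. The windows run 5′ to 3′ on the gene's strand and have 150 bases. H2-DMb1 lies at chr17:34153041-34153190 on the plus strand, H2-Aa at chr17:34287824-34287973 on the minus strand and H2-Eb1 at chr17:34305717-34305866 on the plus strand. Capitals mark CTNGNAACT, letters of an X box, and TGATTGG, a Y box with CCAAT on the other strand.
H2-DMb1: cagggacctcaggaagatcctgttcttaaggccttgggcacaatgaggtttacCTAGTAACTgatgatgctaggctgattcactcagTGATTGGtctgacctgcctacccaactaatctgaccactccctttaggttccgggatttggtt
H2-Aa: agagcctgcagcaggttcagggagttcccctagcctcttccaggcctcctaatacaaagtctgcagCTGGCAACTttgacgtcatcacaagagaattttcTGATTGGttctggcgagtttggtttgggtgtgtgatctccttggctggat
H2-Eb1: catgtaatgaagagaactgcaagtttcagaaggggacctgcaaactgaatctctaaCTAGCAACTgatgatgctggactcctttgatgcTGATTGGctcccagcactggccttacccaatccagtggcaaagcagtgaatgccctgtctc
The X letters began 97, 84 and 94 bases before the RefSeq start in H2-DMb1, H2-Aa and H2-Eb1, and 25, 25 and 24 bases parted them from the Y letters. The RefSeq start of H2-DMb1 lies downstream of the GENCODE start given for this gene further on. The motifs do not overlap each other, were searched on both strands and were written after these windows had been read. Of 32851 promoter windows of 300 bases, 4.10% held the X letters and 7.82% the Y letters. The pair, with 10 to 40 bases between, was in 5 windows (0.0152%), those of the 3 members and of 1700048F04Rik and BC051142. The 2 windows of H2-DMa held neither set of letters.

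The analysis rests on 4440 cells in 12 libraries, 4 for each tumour, and no barcode was shared between libraries. The tumours gave 1226, 1815 and 1399 cells with 1391113, 1862139 and 707889 UMIs (anti-CD40 tumour 1, anti-CD40 tumour 2, untreated). The authors' class MoMacDC, which joins monocytes, macrophages and dendritic cells, had 448, 1330 and 1136 cells with a median of 1058.5, 921.5 and 425 UMIs. The treated cells were thus read more deeply, and levels below are UMIs per 10000 UMIs of the same cells, with exact 95% Poisson or conditional intervals that cover counting error only. The macrophage genes C1qa, C1qb and C1qc were detected in the class in each tumour, at a summed 27.2, 93.8 and 122 per 10000, so that anti-CD40 tumour 1 stood apart in its C1q level. Anti-CD40 tumour 1 also had the highest summed level of 7 monocyte marker genes (60.3, 16.1 and 24.99 per 10000). These genes are not particular to monocytes, and in neutrophils they summed to 45.8, 30.4 and 9.80 per 10000. Of MoMacDC cells 16.5%, 5.86% and 1.14% carried 3 or more marker UMIs of a second class (T cells, B cells, NK cells or neutrophils). Neutrophil markers summed to 21.9, 9.53 and 2.61 per 10000 in MoMacDC cells. In tumour 1 B cell, NK cell and T cell markers had 0.302, 0.0168 and 0. These and later marker cutoffs count raw UMIs, so that deeper treated cells pass them at a lower marker level. Levels of a class cannot tell fewer expressing cells from less RNA per cell.

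Across the classes, the summed level of H2-Aa, H2-Ab1, H2-Eb1 and Cd74 was highest in MoMacDC cells among the classes with at least 20 cells per tumour. It was 84.6 per 10000 (82.2 to 86.9) in anti-CD40 tumour 1, 206 (204 to 208) in tumour 2 and 250.5 (246 to 255) in the untreated tumour. T cells had 6.93 (4.67 to 9.89), 3.46 (2.43 to 4.77) and 42.5 (38.0 to 47.3), NK cells had 0, 1.15 (0.626 to 1.92) and 20.2 (14.8 to 26.8), and neutrophils had 1.37 (1.12 to 1.68), 2.55 (1.85 to 3.42) and 5.11 (2.64 to 8.93). The 0 in NK cells of anti-CD40 tumour 1 has an exact upper limit of 0.953 per 10000, and 3 counts would be 0.775. The order of the classes below MoMacDC differed between the tumours. In anti-CD40 tumour 2 the intervals of neutrophils overlapped those of T cells and of NK cells, and in the untreated tumour all 4 classes had separate intervals.

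**Figure D1:**
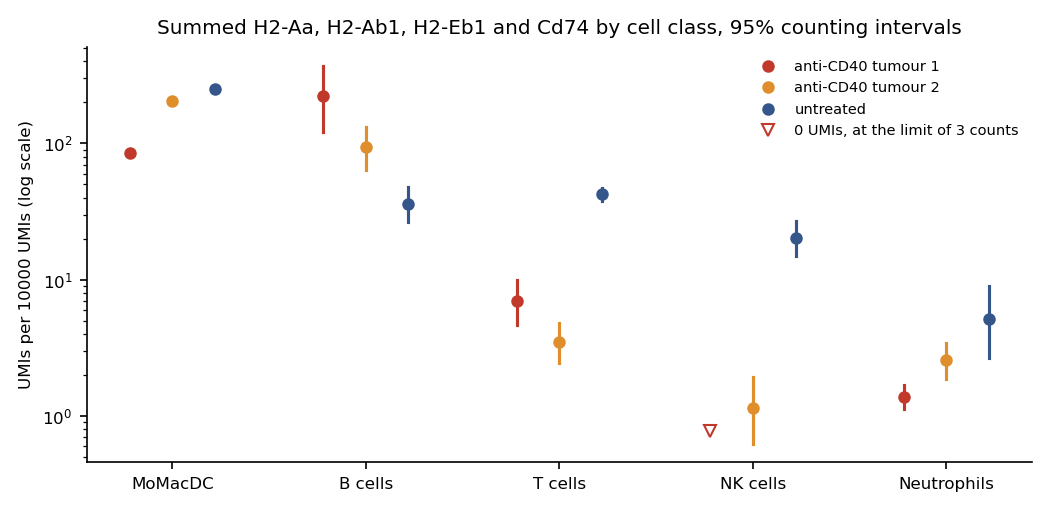
Summed UMIs of H2-Aa, H2-Ab1, H2-Eb1 and Cd74 per 10000 UMIs (log axis) for each cell class, with anti-CD40 tumour 1, anti-CD40 tumour 2 and the untreated tumour from left to right. Points are sums over the cells of a tumour, lines are 95% counting intervals, and the open triangle marks 0 UMIs at the limit that 3 counts give; MoMacDC cells lie between 84.6 and 250.5, and T cells, NK cells and neutrophils at or under 42.5.

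Among MoMacDC cells all 7 genes had a lower level in each treated tumour than in the untreated tumour, but not to the same extent. For H2-Aa in tumour 2 the counting intervals overlapped, at 67.2 (65.9 to 68.6) against 68.5 (66.4 to 70.7) per 10000. Ciita was low in both treated tumours to a like degree. H2-Aa, H2-Eb1 and Cd74 were much lower in anti-CD40 tumour 1 and nearer to the untreated level in tumour 2. H2-Ab1, H2-DMa and H2-DMb1 lay between these patterns. Ciita alone passed the test of treated against untreated tumours, as 1 of 7 members, in a fit in which 0.409% of 7099 genes passed and 0.239% passed as lower.

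Ciita, on chromosome 16 (10480059 to 10528418, plus strand, GRCm38 with GENCODE M21), had 0.420 UMIs per 10000 in anti-CD40 tumour 1 (25 UMIs) and 0.330 in tumour 2 (48 UMIs), against 2.02 in the untreated tumour (115 UMIs). Its libraries ranged over 0.231 to 0.609 and 0.219 to 0.438 in the treated tumours, and over 1.41 to 2.45 in the untreated tumour. No treated library reached the lowest untreated library, and the treated tumours overlapped each other. The log2 change was -2.43 ± 0.38 (SE, 2 treated tumours and 1 untreated tumour; edgeR adjusted p = 0.00708). The ratio to the untreated level was 0.208 (0.129 to 0.323) in tumour 1 and 0.164 (0.114 to 0.231) in tumour 2. Within pool 1 and within pool 2, pools that each hold libraries of tumour 1 and the untreated tumour, the ratio for tumour 1 was 0.278 and 0.145; pools 3 and 4 hold tumour 2 alone, so that no within-pool ratio exists for it. The ratio of tumour 1 to tumour 2 was 1.27, with an interval of 0.752 to 2.10 that includes equality. The call was lost in DESeq2 (adjusted p = 0.167) and without pool 2 (0.182). Exons of Ciita overlap Dexi on the opposite strand, which leaves its counts uncertain since the use of strand is not given.

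H2-Aa (chromosome 17, 34282744 to 34287823, minus strand), for the α chain of I-A, had 25.9, 67.2 and 68.5 UMIs per 10000 in anti-CD40 tumour 1, anti-CD40 tumour 2 and the untreated tumour. Libraries of tumour 2 (61.7 to 86.0) overlapped the untreated ones (60.002 to 73.3), and those of tumour 1 (23.1 to 33.8) lay below all others. The ratio to the untreated level was 0.378 (0.356 to 0.401) in tumour 1 and 0.981 (0.946 to 1.02) in tumour 2, so that the 2 treated animals differed more from each other than tumour 2 did from the untreated tumour. The log2 change over both was -0.49 ± 0.62 (edgeR adjusted p = 0.866).

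H2-Ab1 (chromosome 17, 34257689 to 34269419, plus strand), for the β chain that pairs with H2-Aa, had 5.42, 11.05 and 19.7 per 10000. Its libraries did not overlap between any of the tumours, at 4.82 to 6.80, 9.80 to 12.2 and 17.7 to 21.996. In tumour 2 the β chain transcript was at 0.561 (0.519 to 0.606) of the untreated level, where that of its partner chain was at 0.981. The log2 change was -1.20 ± 0.50 and did not pass (edgeR adjusted p = 0.502).

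H2-Eb1 (chromosome 17, 34305867 to 34316674, plus strand), for the β chain of I-E, had 24.6, 63.6 and 81.7 per 10000, with ratios to the untreated level of 0.301 in tumour 1 and 0.778 in tumour 2. The highest library of tumour 2, at 87.3, exceeded 3 of the 4 untreated libraries, which ranged over 73.1 to 88.2. Cd74 (chromosome 18, 60803848 to 60812652, plus strand), for the invariant chain, had 28.7, 64.3 and 80.6 per 10000, with ratios of 0.356 and 0.798. Its libraries did not overlap between tumours, with a highest value of 71.4 in tumour 2 and a lowest of 77.1 in the untreated tumour. Exons of Cd74 overlap Mir5107 on the same strand, which adds uncertainty to the counts of Cd74. The log2 changes were -0.82 ± 0.61 for H2-Eb1 and -0.73 ± 0.56 for Cd74 (edgeR adjusted p = 0.768 and 0.770).

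H2-DMa (chromosome 17, 34119541 to 34139101, plus strand) and H2-DMb1 (chromosome 17, 34153072 to 34160230, plus strand), for the chains of the peptide exchanger H2-M, had like ratios to the untreated level. H2-DMa had 1.83, 3.47 and 8.001 per 10000, and H2-DMb1 had 1.65, 3.55 and 6.74. All 8 treated libraries lay below all 4 untreated libraries for both genes. The highest treated library was at 3.71 for H2-DMa and 5.21 for H2-DMb1, against lowest untreated libraries of 7.16 and 5.78. Ratios to the untreated level were 0.229 and 0.434 for H2-DMa and 0.244 and 0.527 for H2-DMb1 in anti-CD40 tumours 1 and 2. The log2 changes of -1.53 ± 0.45 and -1.30 ± 0.50 did not pass (edgeR adjusted p = 0.301 and 0.481). H2-DMa passed with plain library size (adjusted p = 0.0122), and in cells thinned to 300 UMIs it passed with H2-DMb1 (0.0387 and 0.021). Exons of H2-DMa overlap Brd2 on the opposite strand, and 22.7% of the 50-base words of H2-DMb1 also occur in H2-DMb2, so that counts of both are uncertain.

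**Figure D2:**
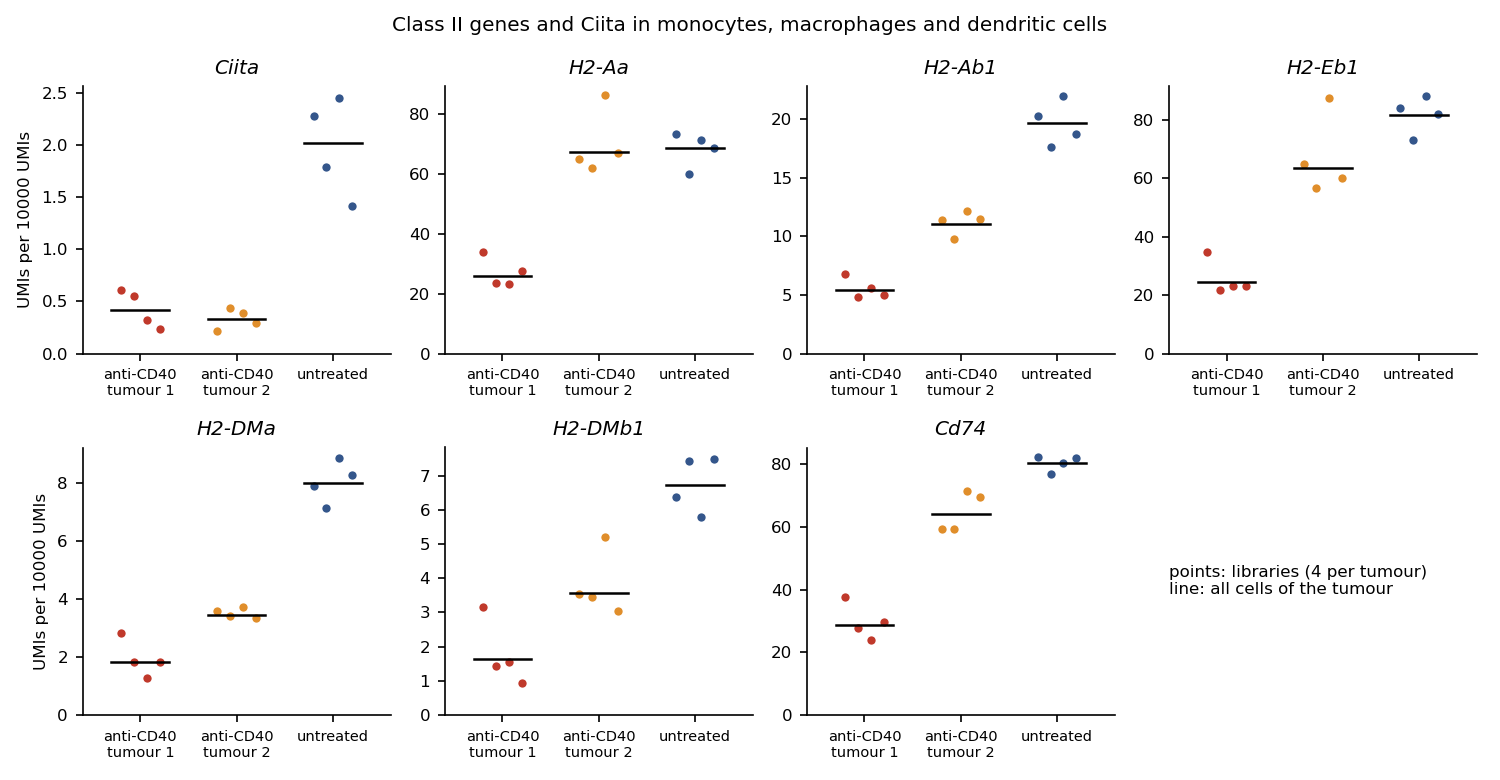
UMIs per 10000 UMIs of each gene in MoMacDC cells, with anti-CD40 tumour 1, anti-CD40 tumour 2 and the untreated tumour from left to right. Points are the 4 libraries of a tumour, which are technical parts of it, and lines are the level over all its cells; Ciita is at 0.420, 0.330 and 2.02, while H2-Aa is at 25.9, 67.2 and 68.5.

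Placed side by side, the genes of the family kept unequal shares of their untreated level. In tumour 2 the ratios were 0.164 for Ciita, 0.434 for H2-DMa, 0.527 for H2-DMb1, 0.561 for H2-Ab1, 0.778 for H2-Eb1, 0.798 for Cd74 and 0.981 for H2-Aa. Ciita lay below and H2-Aa above all others with no overlap of counting intervals, while the intervals of H2-DMa and H2-DMb1, of H2-DMb1 and H2-Ab1 and of H2-Eb1 and Cd74 overlapped. In tumour 1 the ratios were 0.208, 0.229, 0.244, 0.275, 0.301, 0.356 and 0.378 for the same genes, a narrower span. The tumour 1 ratios include its cells with markers of a second class, which held 162268 of its 595728 MoMacDC UMIs. Both sets of ratios share the untreated tumour and are not independent. The sum of H2-Aa, H2-Ab1, H2-Eb1 and Cd74 was at 0.338 in tumour 1, with 0.367 within pool 1 and 0.310 within pool 2, and at 0.823 in tumour 2. Over the 7 members the median log2 change was -1.20, beside 0.02 over all genes tested.

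Set against H2-Aa, the balance of the transcripts differed between treated and untreated cells. For each 100 H2-Aa UMIs there were 20.9, 16.4 and 28.8 UMIs of H2-Ab1 in anti-CD40 tumour 1, anti-CD40 tumour 2 and the untreated tumour, with library ranges of 18.3 to 24.2, 14.2 to 17.6 and 27.4 to 30.9. H2-DMa had 7.07, 5.16 and 11.7, and H2-Eb1 had 95.1, 94.6 and 119. In these 3 genes no treated library reached an untreated one. H2-DMb1 had 6.36, 5.29 and 9.84, and Ciita had 1.62, 0.491 and 2.95; for both, the highest library of tumour 1 exceeded the lowest untreated library. Cd74, at 111, 95.6 and 118, kept its proportion in tumour 1, where its libraries (104 to 119) overlapped the untreated ones (113 to 128), and was below all untreated libraries in tumour 2 (83.0 to 104).

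**Figure D3:**
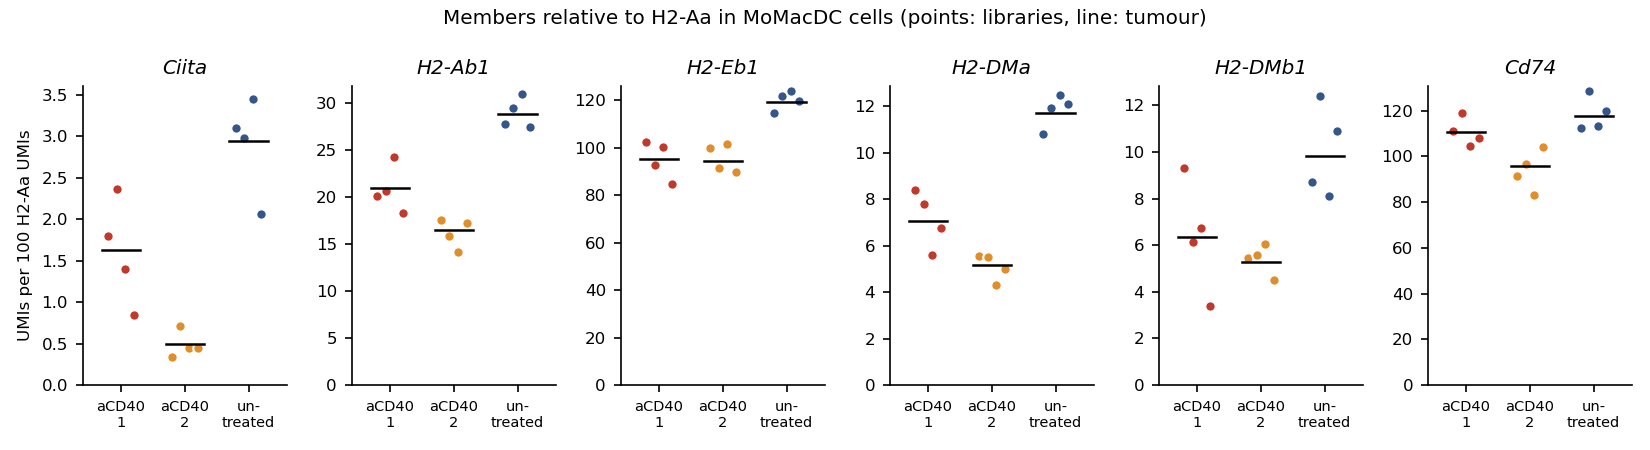
UMIs of each gene for every 100 UMIs of H2-Aa in MoMacDC cells, with anti-CD40 tumour 1, anti-CD40 tumour 2 and the untreated tumour from left to right. Points are libraries and lines are tumours; for H2-Ab1 the tumours are at 20.9, 16.4 and 28.8 with no treated library at the untreated level.

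To part the mix of cells from a change within cells, MoMacDC cells were divided by their raw UMIs of C1qa, C1qb and C1qc, subunits of a complement protein made by macrophages. Cells with 3 or more C1q UMIs were 32.6% (28.3 to 37.1) of the class in anti-CD40 tumour 1, 64.1% (61.4 to 66.6) in tumour 2 and 59.7% (56.8 to 62.6) in the untreated tumour. Cells with none were 58.0%, 24.7% and 25.4%. The rule counts raw UMIs, so that deeper treated cells pass it at a lower C1q level: the C1q level in the upper stratum was 77.3, 134 and 180 per 10000.

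In cells with 3 or more C1q UMIs, Ciita, H2-DMa and H2-DMb1 were lower after anti-CD40, as 3 of 7 members, where 2.76% of 5880 genes passed and 1.04% passed as lower. In anti-CD40 tumour 1, anti-CD40 tumour 2 and the untreated tumour, 34.2%, 18.8% and 5.16% of these C1q cells also carried 3 or more monocyte marker UMIs. Markers of a second class were carried by 7.53%, 5.99% and 1.33%. With median depths of 1244, 1057 and 486.5 UMIs, these shares cannot part composition from depth. All 3 genes also passed without the monocyte-marked cells, a setting chosen after seeing the data, and without those with markers of a second class. Ciita had 0.447, 0.368 and 2.20 per 10000 (9, 37 and 82 UMIs) in the tumours in that order. Its treated libraries, of which the highest was 0.701, all lay below the lowest untreated one at 1.24. The log2 change was -2.41 ± 0.41 (edgeR adjusted p = 2.43e-06). H2-DMa had 2.49, 3.87 and 9.05 per 10000 and a log2 change of -1.40 ± 0.33 (edgeR adjusted p = 0.00233). H2-DMb1 had 2.29, 3.90 and 7.65 per 10000 and a log2 change of -1.19 ± 0.33 (edgeR adjusted p = 0.0188). For both H2-M genes, too, every treated library of these cells lay below every untreated one.

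The other 4 members did not pass in these cells. H2-Ab1 had 8.05, 12.1 and 21.6 per 10000 (-1.02 ± 0.36, edgeR adjusted p = 0.105), again with no overlap between treated and untreated libraries. H2-Aa had 40.9, 71.2 and 74.0 (-0.33 ± 0.42, edgeR adjusted p = 0.838), H2-Eb1 had 41.0, 69.4 and 89.2, and Cd74 had 47.0, 68.5 and 88.6. In tumour 1 the ratio of H2-Aa to the untreated level was 0.552 (0.510 to 0.597) in C1q cells, above the 0.378 found over the whole class. H2-Ab1 passed with plain library size (adjusted p = 0.00902). H2-DMb1 lost its call without pool 1 (adjusted p = 0.0628) and without a low-count filter (0.143). All 3 calls were lost without pool 2 (adjusted p of 0.0938 for Ciita, 0.413 for H2-DMa and 0.422 for H2-DMb1) and in cells thinned to 300 UMIs (0.531, 0.12 and 0.136). DESeq2 called none of the 6 members to which it gave an adjusted p, and gave none for Ciita (unadjusted p = 0.00237).

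In cells without a C1q UMI, Ciita and H2-DMa were lower, as 2 of 7 members, where 0.505% of 5549 genes passed and 0.378% passed as lower. Ciita had 0.445, 0.239 and 1.60 per 10000 in anti-CD40 tumour 1, anti-CD40 tumour 2 and the untreated tumour, from only 15, 8 and 22 UMIs. Its highest treated library, at 1.11, exceeded the lowest untreated library at 0.856. The log2 change was -2.30 ± 0.56 (edgeR adjusted p = 0.0280). H2-DMa had 1.48, 2.54 and 6.53 per 10000, with no overlap of libraries, and a log2 change of -1.78 ± 0.44 (edgeR adjusted p = 0.0380). Both calls were lost without pool 1 (adjusted p of 0.554 for Ciita and 0.369 for H2-DMa), without pool 2 (0.365 for each) and without cells that carry dendritic cell markers (0.38 and 0.557), and that of Ciita without pool 4 (0.0582). DESeq2 called none of the 6 members to which it gave an adjusted p here. Over all alternatives with an adjusted p, the call was kept in 6 of 12 for Ciita and in 8 of 13 for H2-DMa.

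In cells without C1q, too, H2-Aa, H2-Eb1 and Cd74 were lower in tumour 1 than in tumour 2. Markers of a second class were carried by 20.8% of these cells in tumour 1, 5.78% in tumour 2 and 1.04% in the untreated tumour. Leaving such cells out took the UMIs of tumour 1 in this stratum from 337041 to 216719. The levels that follow include them. H2-Aa had 16.8 per 10000 in anti-CD40 tumour 1 and 53.7 in tumour 2, against 57.7 in the untreated tumour. H2-Eb1 had 14.6 and 47.4, against 68.0, and Cd74 had 18.6 and 51.2, against 60.6. Changes of -0.78 ± 0.91, -1.20 ± 0.91 and -0.86 ± 0.64 on the log2 scale did not pass (edgeR adjusted p = 0.848, 0.782 and 0.753). H2-Ab1 had 3.62, 7.76 and 13.3, and H2-DMb1 had 1.25, 2.87 and 4.86, and neither passed. Under some alternatives H2-Ab1 and H2-Eb1 passed as lower, while H2-Aa, Cd74 and H2-DMb1 passed under none. In the remaining cells, with 1 to 2 C1q UMIs (42, 149 and 170 cells), H2-Aa had 26.6 per 10000 in tumour 1 and 71.6 in tumour 2, against 59.0 in the untreated tumour. There H2-Aa in tumour 2 was above the untreated level, at a ratio of 1.21 (1.07 to 1.38), while the other 6 members had ratios below 1 in both treated tumours.

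**Figure D4:**
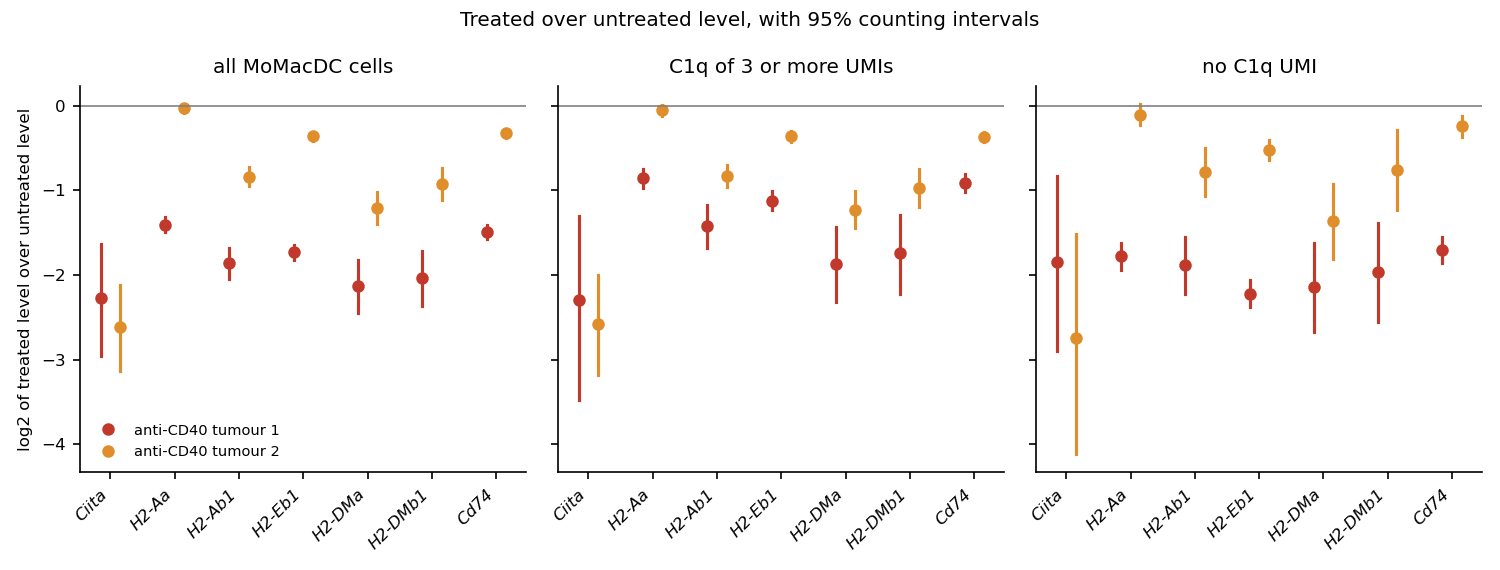
Log2 of the level in each treated tumour over the level in the untreated tumour, for all MoMacDC cells, cells with 3 or more C1q UMIs and cells with none. Points are anti-CD40 tumour 1 (left of each pair) and anti-CD40 tumour 2 (right), and lines are 95% counting intervals; Ciita lies at -2.27 and -2.61 in all MoMacDC cells, -2.30 and -2.58 in C1q cells and -1.84 and -2.74 in cells without C1q.

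The difference between the strata was itself tested, as the treatment effect in C1q cells minus that in cells without C1q. None of the 7 members passed in this edgeR fit, where 1.22% of 6234 genes passed. The difference was -0.04 ± 0.64 for Ciita, 0.28 ± 0.35 for H2-DMa, 0.03 ± 0.36 for H2-DMb1 and 0.26 ± 0.29 for H2-Ab1. H2-Eb1 (0.69 ± 0.25) and H2-Aa (0.55 ± 0.25) had unadjusted p-values of 0.00634 and 0.0290 and adjusted values of 0.218 and 0.461. Cd74 was at 0.40 ± 0.25. DESeq2 called none and gave no member an unadjusted p below 0.05. Without monocyte-marked cells, a setting chosen after seeing the data, H2-Aa (0.75, edgeR adjusted p = 0.0445) and H2-Eb1 (0.88, edgeR adjusted p = 0.00506) passed as less negative in C1q cells.

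Giving each treated tumour the untreated shares of the 3 C1q strata moved the members unevenly. For Ciita the ratio to the untreated level stayed at 0.207 in anti-CD40 tumour 1, where it was 0.208 with its own mix, and at 0.161 in tumour 2, where it was 0.164. H2-DMa in tumour 1 moved to 0.268, against 0.229 with its own mix, H2-Ab1 to 0.348, against 0.275, and H2-Aa to 0.490, against 0.378. For the sum of H2-Aa, H2-Ab1, H2-Eb1 and Cd74 in tumour 1 the ratio became 0.444, against 0.338, which leaves 74.8% of its log ratio. In tumour 2 that ratio was 0.819, against 0.823. In cells thinned to 300 UMIs, with strata set on the thinned counts, 64.0% of the log ratio of the sum was left in tumour 1 and 93.8% in tumour 2. For Ciita thinning left 2, 18 and 47 UMIs over the class, too few to read the same split.

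Cells without C1q are not of a single kind. Of these, 48.1% in anti-CD40 tumour 1, 29.8% in tumour 2 and 36.5% in the untreated tumour carried 3 or more UMIs of monocyte markers. Without them, in an alternative chosen after seeing the data, the sum of H2-Aa, H2-Ab1, H2-Eb1 and Cd74 was 112, 153 and 289 per 10000 in cells without C1q. H2-Ab1 was then alike in the treated tumours, at 7.38 and 7.20, against 18.6 in the untreated tumour. H2-DMb1 was at 2.52 and 2.50, against 6.36, and H2-DMa at 1.89 and 2.30, against 7.82. H2-Aa in tumour 2, at 49.6 against 84.9 in the untreated tumour, then had a ratio of 0.584 (0.528 to 0.647). Over the whole class, monocyte-marked cells numbered 199, 278 and 152 and had a summed level of 46.9, 187 and 168 per 10000. Cells so marked were low in class II in tumour 1 and not in tumour 2, but their markers are also found in neutrophils. The part of neutrophil RNA in these cells was not tested. Without the monocyte-marked cells the class had 146, 215 and 268 per 10000.

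Cells with dendritic cell markers could be read only in small numbers. The 8 mature dendritic cell genes used, among them Relb and Samsn1, are not particular to such cells. They summed to 22.3, 14.7 and 7.83 per 10000 in MoMacDC cells of anti-CD40 tumour 1, anti-CD40 tumour 2 and the untreated tumour. In neutrophils they had 14.2, 19.6 and 6.39. In MoMacDC cells Clec9a, a cDC1 marker, was at 0 in each tumour, and Xcr1, also a cDC1 marker, in tumour 1. The cells marked by cDC1 genes in tumour 1 thus had neither. Cd209a, a cDC2 marker, was at 0 in both treated tumours, and Kmo, also a cDC2 marker, in tumour 1. Cells with 4 or more UMIs of these 8 mature dendritic cell genes, which also include Ccr7 and Fscn1, numbered 50, 73 and 34. Their summed level of H2-Aa, H2-Ab1, H2-Eb1 and Cd74 was 84.3 per 10000 (76.3 to 92.9) in anti-CD40 tumour 1, 92.4 (85.6 to 99.5) in tumour 2 and 225 (203 to 249) in the untreated tumour. The intervals of the 2 treated tumours overlapped in these cells and both lay below that of the untreated tumour. The treated tumours did not overlap in cells marked by cDC1 genes (17, 27 and 9 cells), at 63.7 (54.5 to 74.0), 129 (118 to 141) and 269 (231 to 312), nor in cells with any dendritic cell markers (97, 142 and 121 cells), at 78.9, 135 and 341. Cells marked by cDC2 genes numbered 1, 2 and 21, and the 21 untreated cells had the highest level of the cell groups named here, at 664 per 10000 (624 to 706). Cells with marker UMIs of a second class had 8.07 per 10000 in tumour 1 (74 cells), 210 in tumour 2 (78 cells) and 130 in the untreated tumour (13 cells). Without them the level of the class was 113, 206 and 252 per 10000, and that of H2-Aa alone was 34.8, 67.1 and 69.0.

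In each tumour, class II transcripts were unevenly spread over the MoMacDC cells. With each cell thinned to 300 UMIs, leaving out 29, 67 and 281 shallower cells, the median cell had 1, 4 and 5 UMIs of the 4 genes in anti-CD40 tumour 1, anti-CD40 tumour 2 and the untreated tumour. No such UMI was found in 49.9% (44.99 to 54.8), 22.9% (20.6 to 25.3) and 24.4% (21.6 to 27.5) of cells, and 10 or more in 9.55% (6.91 to 12.8), 26.1% (23.7 to 28.6) and 31.7% (28.6 to 34.9). Tumour 1 had the most cells at 0 and the fewest rich cells, and the intervals of the other tumours at 0 overlapped. H2-Aa was detected in 32.5%, 58.0% and 58.2% of thinned cells (44.0%, 72.0% and 62.1% before thinning), and H2-Ab1 in 13.6%, 24.5% and 36.7% (23.9%, 44.96% and 45.1%). Ciita was detected in 0.477%, 1.43% and 4.91% of thinned cells (3.79%, 3.01% and 8.01% before), from only 2 thinned cells in tumour 1 and 18 in tumour 2. In thinned T cells, which should lack class II, H2-Aa was found in 2.13%, 0% and 9.68% of cells and any of the 4 genes in 4.26%, 7.09% and 16.1%. Median depths of the T cells before thinning were 778, 651 and 475.5 UMIs. Both shares were highest in the untreated tumour, and the source of these UMIs was not tested.

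**Figure D5:**
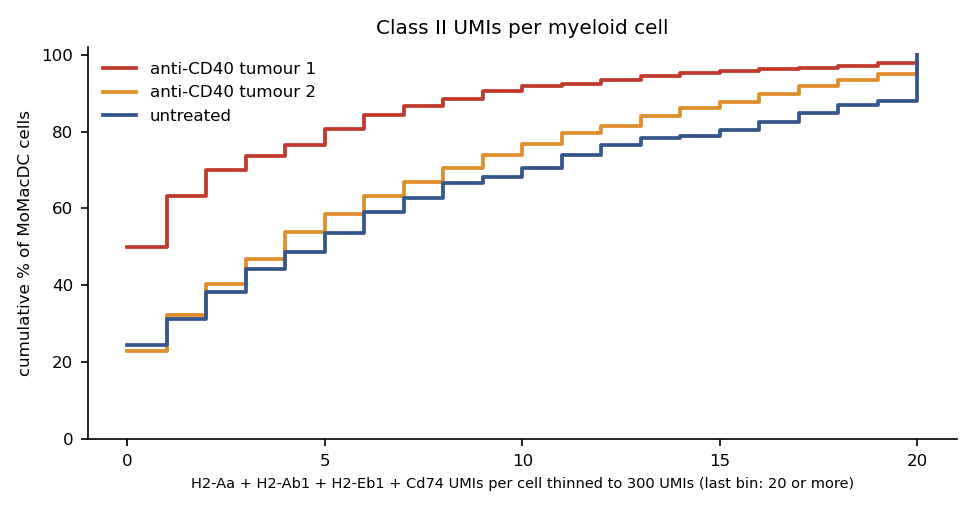
Cumulative share of MoMacDC cells by their UMIs of H2-Aa, H2-Ab1, H2-Eb1 and Cd74 after thinning each cell to 300 UMIs, with cells of 20 or more in the last step. The line of anti-CD40 tumour 1 starts at 49.9% of cells with no UMI, anti-CD40 tumour 2 at 22.9% and the untreated tumour at 24.4%.

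Cells in which a Ciita UMI was caught were richer in class II transcripts in all 3 tumours. The sum of the 4 genes was 351 per 10000 (331 to 371) in the 17 such cells of anti-CD40 tumour 1 and 68.4 (66.3 to 70.6) in its other cells. It was 430 (414 to 446) in 40 cells and 196 (194 to 198) in the others of anti-CD40 tumour 2, and 491 (473 to 510) in 91 cells and 224 (220 to 228) in the others of the untreated tumour. The cells with a Ciita UMI were also deeper, at medians of 2171, 1641 and 537 UMIs beside 1036, 905 and 419, and the cells of a tumour are not replicates. A Ciita UMI was caught in only 3.01% of cells in tumour 2 and 8.01% in the untreated tumour. Cells without such a UMI are thus most of the class and need not lack Ciita. In tumour 2, the 1290 cells without a Ciita UMI had 63.5 per 10000 of H2-Aa, beside 61.8 in the 1045 such cells of the untreated tumour. For H2-DMa the same cells had 3.36, against 7.47 in the untreated tumour, and for H2-DMb1 3.37, against 6.07.

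By their pattern over the 12 libraries of MoMacDC cells, the non-members most like the class II sum were C1qc, C1qb, Axl, Ctss and Pla2g15, with Pearson's r of 0.972, 0.972, 0.969, 0.963 and 0.962 among 3206 genes. Ctss encodes cathepsin S, a protease that trims the invariant chain. Ciita itself had an r of 0.53 over the same libraries, from only 3 to 42 UMIs in a library, and the part of counting error in this value was not tested. H2-DMa, also outside the sum, had 0.89. H2-Ab1 had 0.94 but is itself part of the sum. The libraries share 3 tumours and differ in depth, so that these values describe the order of 3 animals more than of 12 points.

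Other genes of the pathway gave few calls. Of 4 further class II genes in the tables, 2 could be tested in MoMacDC cells and 0 passed. H2-DMb2, a second β chain gene of H2-M, had 6, 18 and 27 UMIs (-1.98 ± 0.53, edgeR adjusted p = 0.188), and H2-Oa, for a chain of the H2-M inhibitor H2-O, had 4, 3 and 17 (-2.94 ± 1.06, edgeR adjusted p = 0.393). Of 7 genes for factors that bind class II promoters, 5 could be tested and 0 passed, with a median log2 change of 0.30 beside 0.02 for all genes. Rfx5, with 7, 9 and 7 UMIs, was not among those tested. Of 13 genes that act upstream of Ciita, 11 could be tested and 0 passed in the whole class. In C1q cells Irf8, for an interferon regulatory factor, was the only gene of these lists that passed, at 2.44, 2.32 and 6.23 per 10000 in anti-CD40 tumour 1, anti-CD40 tumour 2 and the untreated tumour (-1.34 ± 0.34, edgeR adjusted p = 0.00726). Among 9 genes of MHC class I presentation 0 passed and the median log2 change was 0.01. The class I genes H2-K1 and H2-D1 summed to 60.7, 88.3 and 52.5 per 10000, above the untreated level in both treated tumours. Antigen-processing, class II turnover and costimulation genes, 8, 2 and 4 tested, gave 0 calls in the class, with medians of -0.31, 0.32 and 0.17. H2-Ea, H2-Ea-ps and Ifi30 were not analysed here.

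Outside the MoMacDC class, T cells of the untreated tumour had more class II UMIs than those of the treated tumours. H2-Aa, H2-Ab1, H2-Eb1 and Cd74 could be tested in T cells and all 4 passed as lower after anti-CD40, where 2.09% of 1865 genes passed and 1.07% passed as lower. H2-Aa had 7, 7 and 85 UMIs, or 1.62, 0.654 and 11.1 per 10000, in T cells of anti-CD40 tumour 1, anti-CD40 tumour 2 and the untreated tumour. Its log2 change was -3.53 ± 0.41 (edgeR adjusted p = 5.51e-15). H2-Eb1 had 6, 5 and 106 UMIs and Cd74 had 15, 25 and 108, while H2-Ab1 had 2, 0 and 26 and Ciita 0, 0 and 3. Macrophage transcripts moved in the same way: the 3 C1q genes summed to 0.462, 0.748 and 15.2 per 10000 in these T cells, and 6 macrophage markers to 0, 0.561 and 11.4, with all 6 at 0 in tumour 1, Adgre1 and Pf4 at 0 in tumour 2 and none at 0 in the untreated tumour.

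T cells with a C1q UMI, of which there were 1 of 48, 5 of 135 and 27 of 150, held 20, 12 and 244 of the 30, 37 and 325 UMIs of the 4 genes. In the untreated tumour these 27 cells had 217 per 10000 (191 to 246), beside 250.5 in MoMacDC cells. T cells without a C1q UMI had 2.35 (1.13 to 4.33), 2.41 (1.56 to 3.56) and 12.4 (9.85 to 15.4). In these cells, an alternative chosen after seeing the data, H2-Aa (-2.98 ± 0.74, edgeR adjusted p = 0.00598) and H2-Eb1 (-3.24 ± 0.55, edgeR adjusted p = 4.24e-06) passed as 2 of the 3 members tested, where 2.00% of 1549 genes passed and 0.646% passed as lower. Cd74 did not (-0.99 ± 0.49, edgeR adjusted p = 0.471). In DESeq2 H2-Eb1 alone passed over all T cells (adjusted p = 0.0386). The part of macrophage RNA in the remaining difference was not tested.

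NK cells and neutrophils had too few class II UMIs for firm comparison. In NK cells the 4 genes summed to 0, 14 and 47 UMIs in anti-CD40 tumour 1, anti-CD40 tumour 2 and the untreated tumour, beside 0, 6 and 28 C1q UMIs. Of the 47 untreated UMIs 41 lay in the 6 cells with a C1q UMI. None of the 3 members tested passed in edgeR (H2-Eb1 adjusted p = 0.0585; 1.89% of 794 genes passed and 0.882% as lower), with H2-Aa and H2-Eb1 under an unadjusted p of 0.05 and none called by DESeq2. Neutrophils had 0 Ciita UMIs and 0 H2-DMa UMIs in each tumour, and 98, 44 and 12 UMIs of the 4 genes. None of the 3 members tested there passed or had an unadjusted p under 0.05 (0.442% of 2713 genes passed and 0.0369% as lower), and DESeq2 gave no adjusted p for them.

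B cells, usual producers of class II, numbered only 2, 5 and 20, and the class went against its name in part. Of 6 B cell markers all were at 0 in the 2 cells of anti-CD40 tumour 1, and Ms4a1 was at 0 in tumour 2, where they summed to 79.3 per 10000. In the untreated tumour Cd79a, Cd79b and Ms4a1 were at 0 and the sum was 4.41. The cells of this class had 14, 33 and 49 UMIs of the 4 class II genes. Per 10000 UMIs that was 221 (121 to 371), 93.4 (64.3 to 131) and 36.0 (26.6 to 47.6), beside 94.8, 5.66 and 9.55 for C1q, and no comparison was drawn.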

How the data were processed

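The authors deposited raw whole-number counts, one UMI tally for each gene in each cell, and a table naming the library, animal, condition and class of every cell. The submitters' processing notes name bcl2fastq, STAR and GRCm38. What was not given in the sources used here were versions, annotation, strand in counting, cell filters and doublet handling. All deposited cells were kept, without a doublet caller.

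For each class, counts were added up by tumour and fitted over all genes with edgeR 4.0.16 in R 4.3.3 (TMM, filterByExpr, robust quasi-likelihood test, tested on simulated data), with Benjamini-Hochberg adjustment and a threshold of 0.05. The fit of 3 tumours leaves 1 residual degree of freedom; the spread comes from the treated pair and is taken to hold for the untreated tumour as well. The prior had 15.9 degrees of freedom for MoMacDC cells, 61.1 for cells without C1q and infinitely many elsewhere, so most of each variance is borrowed from other genes. No exact test of 1 against 2 tumours can give a small p. Alternatives included DESeq2 1.42.0, other scalings, no filter, thinning to 300 UMIs, subsets of cells and each pool left out. All 7 members are named, with genes of chosen lists that passed or led their list; H2-Oa and Rfx5 were added after their values were seen. The members and lists were chosen with earlier results of these data known. Pools 1 and 2 held the untreated tumour and anti-CD40 tumour 1, and pools 3 and 4 held anti-CD40 tumour 2, so that tumour 2 and its pools cannot be told apart.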

Additional observations from a re-analysis of the deposited data

How the results depend on the processing

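In MoMacDC cells and in both C1q strata the log2 change of all 7 members stayed negative under every alternative run. The number of members called depended more on the setting. In MoMacDC cells, where 1 was called, it was 2 with plain library size, without a low-count filter, without cells with markers of a second class and without dendritic cell-marked cells, 3 after thinning to 300 UMIs and 0 in DESeq2. In C1q cells, where 3 were called, it was 0 in DESeq2 and after thinning, and with plain library size H2-Ab1 passed as well. In cells without C1q, where 2 were called, it was 0 in DESeq2 and without dendritic cell-marked cells, 1 after thinning and 4 without cells with markers of a second class. In T cells, where 4 were called, it was 1 in DESeq2 and 2 without cells with a C1q UMI, and in NK cells, where 0 were called, it was 2 without the filter. The difference between strata had 0 calls, and 2, H2-Aa and H2-Eb1, without monocyte-marked cells; this and the setting on C1q UMIs in T cells were chosen after seeing the data. Leaving out a pool gave 0 to 1 calls in MoMacDC cells, 0 to 3 in C1q cells, 0 to 2 in cells without C1q, 3 to 4 in T cells, 0 to 2 in NK cells and 0 to 0 in neutrophils and in the difference. The mean log2 ratio of the summed 4 genes was -0.92, and ranged over -1.003 to -0.85 with a pool left out. It was -0.73 without cells with markers of a second class and -0.60 without monocyte-marked cells, over 1.5 times smaller.

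Among the members, signs turned in differences between the strata and in neutrophils. For Ciita the difference between strata was 0.028 without pool 2, 0.075 without pool 3, 0.28 with C1q cells defined as 0.5% or more of UMIs and 0.48 without monocyte-marked cells. For H2-DMa it was -0.017 without pool 1, for H2-Ab1 -0.23 without pool 1, and for H2-DMb1 -0.068 with plain library size, -0.19, -0.12 and -0.14 without pools 1, 2 and 4 and -0.027 with 5 or more C1q UMIs. Cd74 in neutrophils was at 0.72 without pool 1. The cause was not tested for any of these. No paired analysis was possible because the tumours share no replicate numbers and tumour 2 shares no pool with the untreated tumour; for tumour 1, ratios within pools 1 and 2 stand beside the pooled ones in place of a blocked fit. Depth limits Ciita most: 25, 48 and 115 UMIs in MoMacDC cells of anti-CD40 tumour 1, anti-CD40 tumour 2 and the untreated tumour, and fewer in each stratum.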
